A study of Mus with 8 samples.

Results

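The insulin-like growth factor (IGF) system was followed in differentiating 3T3-L1 preadipocytes through 10 genes out of 24013 in the count table: the ligands Igf1 and Igf2, the receptors Igf1r and Igf2r, and the binding proteins Igfbp2, Igfbp3, Igfbp4, Igfbp5, Igfbp6 and Igfbp7. These genes were chosen by name as parts of the system, and they were also selected on their levels in these same libraries, which were known when the set was drawn up. Their values are therefore given as a description, without p-values. Of the 10 genes, 9 passed the filter on low counts among 13339 tested genes, and Igfbp2, with 31 counts over all libraries, did not.

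The IGF ligands are secreted proteins related to insulin. Both bind the IGF1 receptor, a tyrosine kinase that acts through insulin receptor substrates, phosphoinositide 3-kinase and Akt, and insulin at high concentration can act on the same receptor. The IGF2 receptor, also known as the cation-independent mannose 6-phosphate receptor, has no kinase and carries IGF2 to the lysosome. The IGF binding proteins hold the ligands outside the cell, and proteases that cut them release the ligands. In cultured preadipocytes the IGF1 receptor is known to be needed for the response to the adipogenic hormones.

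The C cells were 3T3-L1 mouse preadipocytes that carried a lentivirus with a scrambled shRNA, and the P cells carried the same vector with an shRNA against Prep1 (gene Pknox1), a homeodomain transcription factor. Both lines were kept in puromycin to select infected cells, and nothing in the sources describes either as a single clone. A single shRNA was sequenced, so an effect of Prep1 down-regulation (DR) and another effect of this shRNA or of this infected line cannot be told apart. RNA was taken at day −2, before induction, and at day 1, after the change to a medium with 10% FBS, insulin at 1 μg/ml, IBMX (a phosphodiesterase inhibitor that raises cAMP) at 0.5 mM and the glucocorticoid dexamethasone at 1 μM. The growth medium held calf serum instead, so hormones, serum and time changed together between the days. Each of the 4 conditions had 2 replicas.

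The libraries held 20428816 to 27614353 counts. Levels are given as CPM, counts scaled to a common library size, where 3 counts in a library correspond to 0.107 to 0.160 CPM. This floor, and the intervals given for low counts, cover counting error only. Levels of different genes are not compared, since transcript lengths were not used here. Pknox1 lay at 26.5 and 28.1 CPM in C cells and between 17.3 and 18.3 CPM in P cells at day −2, and at 36.5 to 38.1 and 23.6 to 23.8 CPM at day 1. All 6 fibroblast and preadipocyte markers were counted in every library, and leukocyte, endothelial and epithelial markers had at most 19 counts each. The 2 replicas of P cells at day −2 stood apart from each other. The standard deviation of their log2 differences over 5600 well-counted genes was 0.795, against 0.121 to 0.261 in the other conditions. Their fibroblast markers summed to 54597 CPM in replica 1 and 14199 CPM in replica 2, against 9304 to 12863 CPM in the other libraries. The collagens Col1a1 and Col1a2 carried most of the sum in replica 1, at 23560 and 28501 CPM against 4882 and 7431 CPM in replica 2, while Pdgfra of the same list lay at 196 and 195 CPM. The levels of the IGF genes are therefore given per replica, and their calls lost without 1 of these replicas are named.

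**Figure D1:**
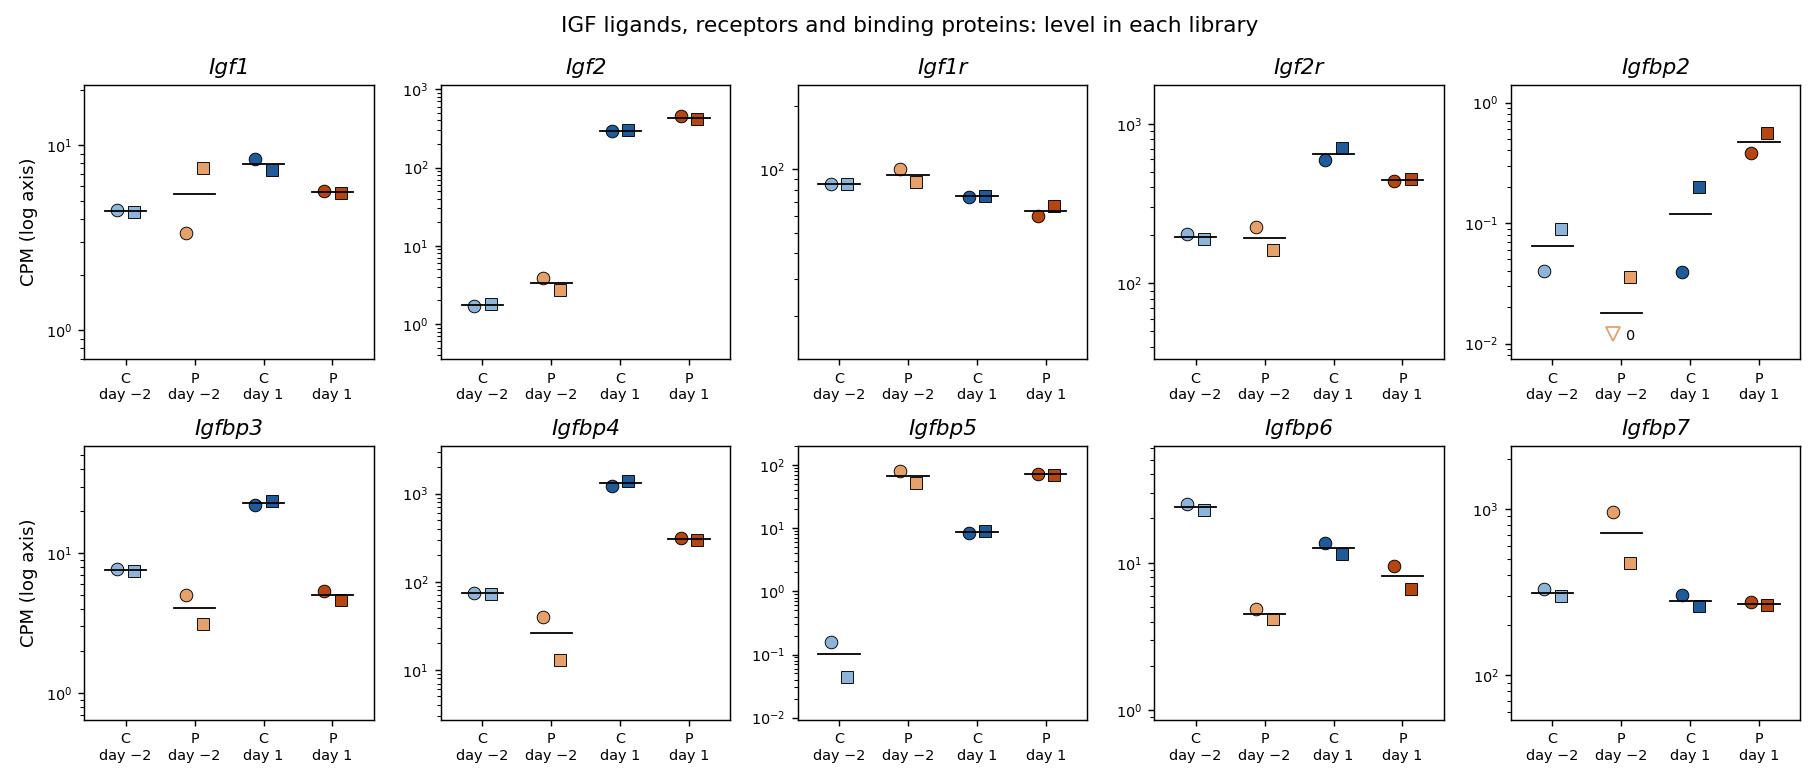
Level of each of the 10 IGF genes in each library (CPM, log axis), grouped by cell line and day. Circles are replica 1, squares replica 2, bars the mean of the 2 replicas, and an open triangle a count of 0. Igf2 sits under 4 CPM in all day −2 libraries and at 289.8 CPM or more in all day 1 libraries, while Igfbp5 is near 0 only in C cells at day −2.

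Igf2, the fetal growth factor of the pair, was the ligand that differed between the days. It was nearly silent before induction in both lines. At day −2 it lay at 1.71 and 1.82 CPM in the 2 replicas of C cells and at 3.89 and 2.75 CPM in those of P cells. At day 1 it lay at 289.8 and 302.4 CPM in C cells and at 455 and 416 CPM in P cells. All day 1 libraries thus stood far above all day −2 libraries, and at either day both P libraries stood above both C libraries. The log2 ratio of day 1 to day −2 was 7.39 (SE 0.24) in C cells and 7.05 (SE 0.23) in P cells, from a quasi-likelihood fit with edgeR over all 8 libraries. A call needed a Benjamini-Hochberg adjusted p-value, over all tested genes, below 0.1 together with a ratio above 2 or below 0.5. Igf2 was called higher at day 1 in both lines. Between the lines, the P to C log2 ratio was 0.90 (SE 0.21) at day −2 and 0.56 (SE 0.17) at day 1, and neither ratio passed the threshold of 2.

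Igf1, the ligand that growth hormone controls in the liver, stayed low. In C cells it went from 4.46 and 4.39 CPM at day −2 to 8.48 and 7.37 CPM at day 1. In P cells it lay at 3.36 and 7.53 CPM at day −2 and at 5.64 and 5.56 CPM at day 1. The day −2 replicas of P cells enclosed the day 1 replicas of the same line, so no direction could be read there. Across induction the log2 ratio was 0.84 (SE 0.36) in C cells and 0.03 (SE 0.36) in P cells, and Igf1 was called in no comparison.

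Igf1r, the signalling receptor, had the smallest ratio of highest to lowest library among the 9 tested IGF genes. Its level was 84.9 and 85.7 CPM in C cells and 101.0 and 87.5 CPM in P cells at day −2. At day 1 it was 74.2 and 75.1 CPM in C cells and 60.2 and 66.9 CPM in P cells. In both lines the day 1 libraries lay below the day −2 libraries. From day −2 to day 1 the log2 ratio was −0.19 (SE 0.14) in C cells and −0.57 (SE 0.14) in P cells, both inside the ratio threshold.

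Igf2r, the receptor that clears IGF2, was called higher at day 1 in both lines. It went from 203 and 189 CPM to 594 and 701 CPM in C cells, a log2 ratio of 1.72 (SE 0.20). In P cells it went from 226 and 161 CPM to 437 and 454 CPM, a log2 ratio of 1.20 (SE 0.20). The P libraries enclosed the C libraries at day −2 and lay below them at day 1, where the P to C log2 ratio was −0.54 (SE 0.19) and was not called. The call in P cells was lost without replica 2 of P cells at day −2, when the log2 ratio was 0.98.

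Igfbp5, the most conserved of the binding proteins and one that also attaches to the extracellular matrix, held the widest gap between the lines. In C cells at day −2 it had 4 counts in replica 1 and 1 count in replica 2, or 0.159 and 0.0443 CPM. In P cells at that day it lay at 81.8 and 51.5 CPM. At day 1 it lay at 8.33 and 9.12 CPM in C cells and at 72.6 and 70.9 CPM in P cells. C cells thus went from near the floor to a level that was still below every P library, and the day −2 libraries of P cells enclosed those of day 1. Summed over replicas, 2980 counts in P cells stood against 5 in C cells at day −2, a ratio of scaled counts of 607 with a 95% counting interval of 260 to 1870. The rise in C cells, 440 counts against the same 5, was a ratio of 83.1 with an interval of 35.4 to 257. In the edgeR fit the P to C log2 ratio was 9.24 (SE 0.45) at day −2 and 3.04 (SE 0.29) at day 1. The log2 ratio of day 1 to day −2 was 6.31 (SE 0.45) in C cells and 0.11 (SE 0.26) in P cells. Igfbp5 passed the filter on low counts in 3 of the 4 conditions, all but C cells at day −2.

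Igfbp4, a binding protein that mostly restrains IGF action, was called higher at day 1 in both lines and lower in P than in C cells at day 1. It went from 74.9 and 73.4 CPM to 1231 and 1402 CPM in C cells, a log2 ratio of 4.15 (SE 0.50). The P cells went from 39.8 and 13.0 CPM to 317.9 and 299.8 CPM, a log2 ratio of 3.55 (SE 0.49). Both P libraries lay below both C libraries at either day. Set against C cells, P cells had a log2 ratio of −1.49 (SE 0.45) at day −2, not called, and −2.09 (SE 0.46) at day 1. At day −2 the value was −2.50, and called lower, without replica 1 of P cells at that day, and −0.90 without replica 2. The day 1 call was kept only when either day −2 library of P cells was left out, and was lost in the other 6 of 8 leave-outs.

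Igfbp3, the main IGF carrier of the blood, was called higher at day 1 in C cells alone. It went there from 7.77 and 7.44 CPM to 22.2 and 23.5 CPM, a log2 ratio of 1.59 (SE 0.25). In P cells it lay at 5.06 and 3.10 CPM at day −2 and at 5.38 and 4.62 CPM at day 1, a log2 ratio of 0.30 (SE 0.26). The P replicas of the 2 days overlapped, and at either day both lay below the C replicas. As a P to C log2 ratio the gap was −0.91 (SE 0.26) at day −2, not called, and −2.19 (SE 0.26) at day 1, called lower. That call was lost without either day 1 library of P cells, at −2.30 without replica 1 and −2.08 without replica 2. The difference of the responses, −1.28 (SE 0.36) on the log2 scale, was not called.

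Igfbp6, which prefers IGF2 over IGF1, stood the opposite way across induction in the 2 lines. In C cells it went from 24.9 and 23.0 CPM at day −2 to 13.7 and 11.5 CPM at day 1. In P cells it went from 4.85 and 4.14 CPM to 9.57 and 6.68 CPM. The day 1 libraries lay below the day −2 libraries in C cells and above them in P cells, and at either day both P libraries lay below both C libraries. Between the lines, the P to C log2 ratio was −2.42 (SE 0.24) at day −2, called lower, and −0.63 (SE 0.23) at day 1, not called. Across induction the log2 ratio was −0.93 (SE 0.23) in C cells and 0.86 (SE 0.24) in P cells, neither of them called.

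Igfbp7, a low-affinity relative of the binding proteins found in the matrix, was high in P cells at day −2. It lay there at 958 CPM in replica 1 and 471 CPM in replica 2, against 330 and 297 CPM in C cells. At day 1 it lay at 303 and 259 CPM in C cells and at 274 and 264 CPM in P cells, which overlapped. Set against C cells, P cells had a log2 ratio of 1.19 (SE 0.31) at day −2, called higher, and −0.06 (SE 0.31) at day 1. In P cells the log2 ratio of day 1 to day −2 was −1.41 (SE 0.32), called lower. The call at day −2 was lost in 7 of 8 leave-outs, with a log2 ratio of 0.59 without replica 1 of P cells at day −2, the library with high Col1a1 and Col1a2. The fall in P cells was lost without that library, at −0.82, and without either day 1 library of P cells. The gene Polr2b overlaps Igfbp7 in the RefSeq list. Reads from the stretch they share cannot be told apart, since the use of strand in counting is not given in the sources used here.

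Igfbp2, the main binding protein of many fetal tissues, was near the floor. It had 1 and 2 counts in C cells and 0 and 1 count in P cells at day −2, then 1 and 5 counts in C cells and 9 and 12 counts in P cells at day 1. The 2 P libraries at day 1 held most of its 31 counts. As a ratio of scaled counts, P cells at day 1 stood 3.94 times above C cells at day 1, 21 counts against 6, with a counting interval of 1.54 to 11.9. They stood 21.9 times above P cells at day −2, 21 counts against 1, with an interval of 3.53 to 907.

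**Figure D2:**
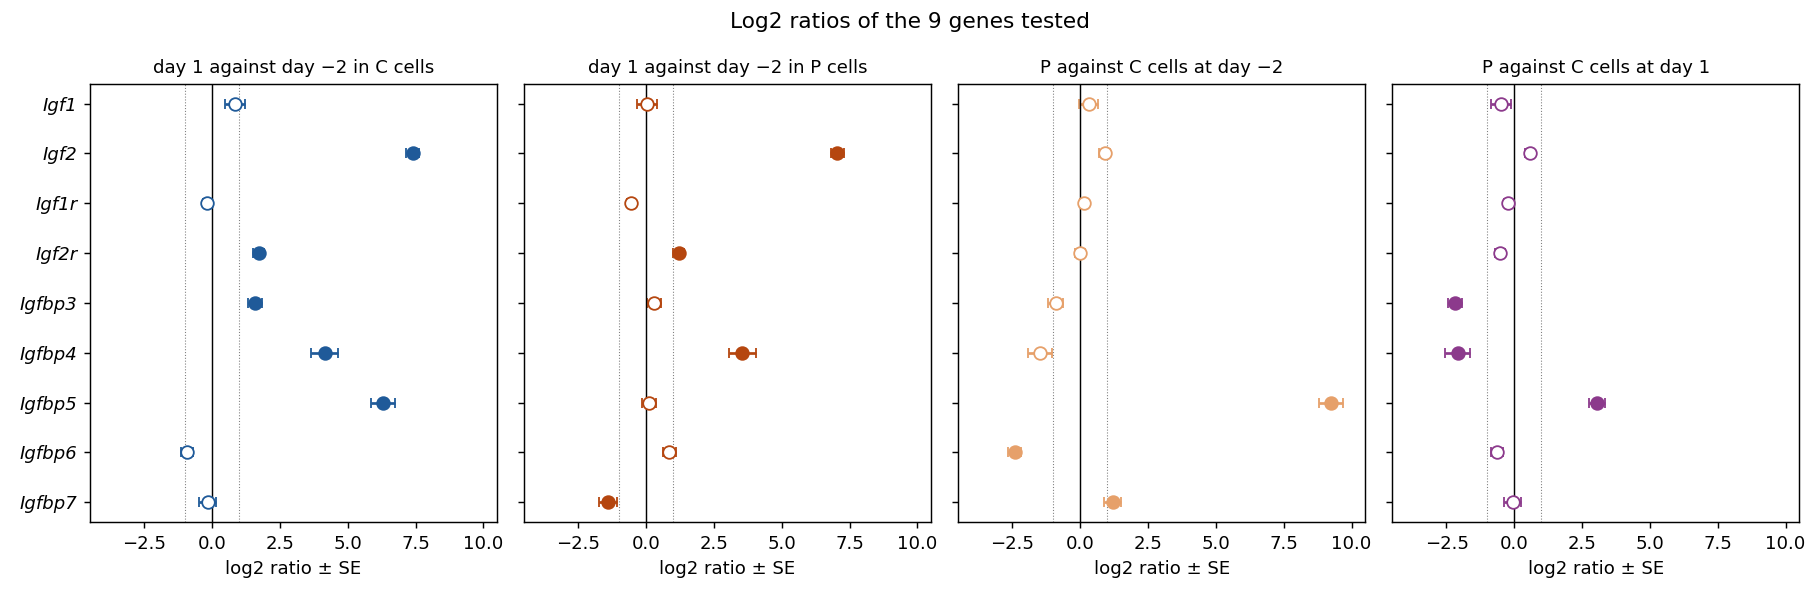
Log2 ratio of each of the 9 tested IGF genes in the 4 comparisons, with 1 standard error to either side (edgeR, 8 libraries). Filled points passed the call rule and open points did not. Igf2, Igf2r and Igfbp4 are called higher at day 1 in both lines, and Igfbp5 is called higher in P cells at both days.

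Ordered by mean level, the 4 conditions fell differently for the different members. Igf2 was lowest in C cells at day −2, next in P cells at that day, then in C cells at day 1 and highest in P cells at day 1, with no overlap between neighbours. Igf2r and Igfbp4 were highest in C cells at day 1, followed by P cells at day 1. For Igfbp4 the next were C cells and then P cells at day −2, with no overlap, while for Igf2r the day −2 libraries of the 2 lines overlapped. Igfbp3 was highest in C cells at day 1 and then in C cells at day −2, and the 2 conditions of P cells below them overlapped. Igfbp5 was highest in the 2 conditions of P cells, which overlapped, followed by C cells at day 1 and at day −2. Igfbp6 was highest in C cells at day −2, then in C cells at day 1, with both conditions of P cells below, day 1 above day −2, and no overlap between neighbours. Igfbp7 was highest in P cells at day −2, followed by C cells at day −2 and by the day 1 conditions. Its replicas in C cells at day 1 overlapped with those of P cells at day 1 and with those of C cells at day −2.

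Counted together, 5 of the 9 tested genes were called higher by edgeR at day 1 in C cells, namely Igf2, Igf2r, Igfbp3, Igfbp4 and Igfbp5, and 0 were called lower. DESeq2 also called 5. In edgeR 6 of the 9 had an unadjusted p-value under 0.05, as did 5259 of all 13339 genes. Over all 13339 genes 10.7% were called higher and 9.68% lower in that comparison. In P cells 3 were called higher (Igf2, Igf2r and Igfbp4) and 1 lower (Igfbp7), with 7.65% and 10.4% of all genes. Between P and C cells at day −2, 2 were called higher (Igfbp5 and Igfbp7) and 1 lower (Igfbp6), with 4.83% and 2.15% of all genes. At day 1, 1 was called higher (Igfbp5) and 2 lower (Igfbp3 and Igfbp4), with 1.83% and 2.23% of all genes. Since the genes were chosen with these values known, nothing is read from their counts or medians against those of all genes. The median log2 ratio of the 9 genes was 1.59 in C cells and 0.30 in P cells for day 1 against day −2, and 0.14 and −0.50 for P against C cells at day −2 and day 1. The medians over all tested genes were −0.01, 0.02, 0.01 and 0.01.

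The responses of the 2 lines to induction were compared as the difference of their log2 ratios, and a call needed only an adjusted p-value below 0.1. Among the 9 genes 1 was called higher in P cells and 1 lower, with 0.435% and 1.93% of all genes. Igfbp5 had the lower call, with a difference of −6.21 (SE 0.54). It was kept in every leave-out of a library. The higher call was that of Igfbp6, with a difference of 1.79 (SE 0.33), and it was lost in 6 of 8 leave-outs, all but those of a day −2 library of P cells. For Igf2, Igf1r, Igf2r, Igf1 and Igfbp4 the differences were −0.34 (SE 0.27), −0.38 (SE 0.20), −0.52 (SE 0.27), −0.81 (SE 0.51) and −0.60 (SE 0.62), and none of these was called. For Igfbp7 the difference was −1.25 (SE 0.44), also not called. The median difference over the 9 genes was −0.60, against −0.01 over all tested genes. Nothing is read from this gap either, since the genes were chosen with these values known.

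**Figure D3:**
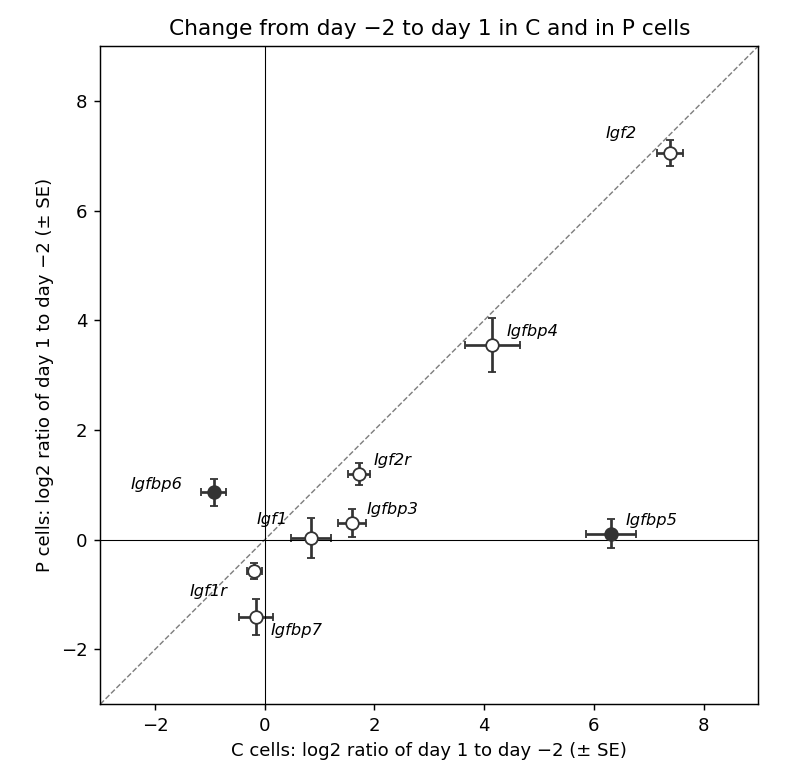
Log2 ratio of day 1 to day −2 in P cells (y axis) against that in C cells (x axis) for the 9 tested IGF genes, with 1 standard error to either side. The diagonal marks equal responses, and filled points passed the call rule for the difference. Igf2 and Igfbp4 lie close to the diagonal, Igfbp5 lies far below at 6.31 and 0.11, and Igfbp6 is the gene above it in the upper left.

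**Figure D4:**
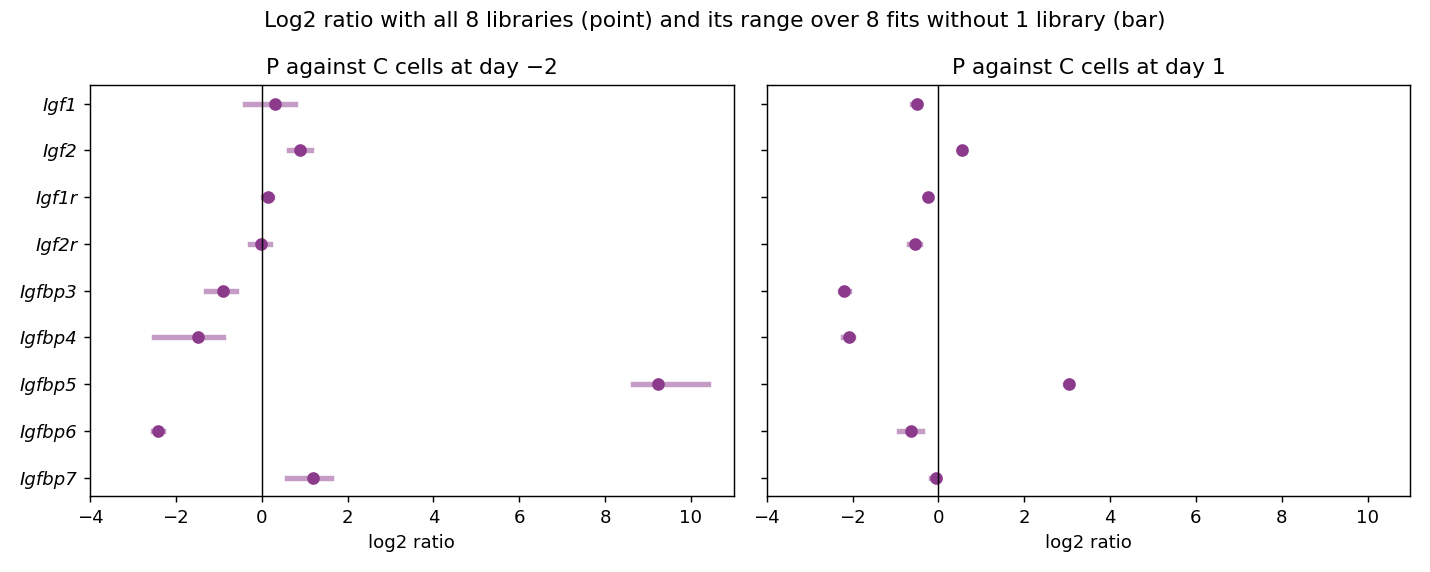
P to C log2 ratio (x axis) of each of the 9 tested IGF genes at day −2 (left) and day 1 (right), with all 8 libraries (point) and its range over the 8 leave-outs of a single library (bar). At day −2 the bars are widest for Igfbp4 and Igfbp5 and stay on 1 side of 0 for both, while those of Igf1 and Igf2r cross 0.

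In bulk RNA, fewer cells that make a transcript and less of it per cell cannot be told apart. The markers of mature fat cells moved with the lines. The 5 genes of that list (Adipoq, Plin1, Lep, Cidec and Fabp4) summed to 2.31 and 2.66 CPM in C cells and 33.9 and 22.3 CPM in P cells at day −2, and to 1.66 and 1.95 CPM in C cells and 129.0 CPM in both P libraries at day 1. Fabp4 carried most of the sums in P cells at day −2, at 28.4 and 19.8 CPM, followed by Plin1 at 4.85 and 1.68 CPM. In those libraries Adipoq lay at 0.266 and 0.250 CPM and Cidec at 0.320 and 0.428 CPM. Lep, the hormone of mature fat cells, had at most 3 counts in any library. The part of these markers in the P to C ratios of the IGF genes was not tested.

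The other genes of the IGF axis were read from a list of 18, of which 11 were tested, and those of insulin and IGF signalling from a list of 32, of which 30 were tested. Their p-values are from the same edgeR quasi-likelihood fit, two-sided and adjusted over all tested genes. Among the 41 tested genes of both lists, 8 were called higher and 6 lower at day 1 in C cells, where 10.7% and 9.68% of all genes were. The P cells had 6 called higher and 4 lower, the latter being Htra1, Irs1, Grb14 and Pik3cb, beside 7.65% and 10.4% of all genes. Between P and C cells at day −2, Pappa and Grb14 were called higher and Htra1 and Pik3cb lower, beside 4.83% and 2.15% of all genes. At day 1 Grb14 was called higher and Pappa lower, beside 1.83% and 2.23%. In the difference of the responses these same 2 genes, Pappa and Grb14, were called lower in P cells, beside 1.93% of all genes. None was called higher, beside 0.435% of all genes. The median log2 ratios of the 41 genes were −0.00 and −0.11 for the 2 inductions. They were 0.05 and −0.06 for P against C cells at day −2 and day 1, and −0.21 for the difference of the responses. Over all tested genes the medians in the same order were −0.01, 0.02, 0.01, 0.01 and −0.01. Igfbp1, Igfbpl1, Igfals, Ins1, Ins2, Insrr and Stc2 were not tested, with at most 11 counts in any library.

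The pappalysins are metalloproteases that cut IGF binding proteins and so release the ligands. Both were called higher at day 1 in C cells, and Pappa2 also in P cells. Pappa was not called there, though both day 1 libraries of P cells lay above both of their day −2 libraries. Pappa, known for cutting IGFBP4, lay at 9.64 and 8.55 CPM in C cells and at 15.2 and 27.6 CPM in P cells at day −2. At day 1 it lay at 68.3 and 83.5 CPM in C cells and at 33.8 and 36.0 CPM in P cells. The P libraries thus lay above the C libraries at day −2 and below them at day 1. From day −2 to day 1 the log2 ratio was 3.06 (SE 0.30, adjusted p = 0.000773) in C cells and 0.70 (SE 0.28, adjusted p = 0.119) in P cells. As a P to C log2 ratio the gap was 1.24 (SE 0.29, adjusted p = 0.0581) at day −2 and −1.12 (SE 0.28, adjusted p = 0.091) at day 1. The difference of the responses was −2.36 (SE 0.40, adjusted p = 0.0493). Of 8 leave-outs of a library, the day −2 call was kept in 1, the day 1 call in 2 and the difference of the responses in 2, all of them without a day −2 library of P cells.

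Pappa2, known for cutting IGFBP3 and IGFBP5, went from 2.51 and 2.61 CPM to 25.7 and 30.7 CPM in C cells. The P cells went from 2.93 and 1.93 CPM to 41.0 and 46.0 CPM. The rise was 3.46 on the log2 scale (SE 0.25, adjusted p = 0.000241) in C cells and 4.18 (SE 0.26, adjusted p = 0.000203) in P cells. The 2 lines overlapped at day −2, and at day 1 the P to C log2 ratio was 0.63 (SE 0.22, adjusted p = 0.208). Stc1, a stanniocalcin of the family that inhibits the pappalysins, was not called, with a log2 ratio at day 1 of 1.09 (SE 0.45, adjusted p = 0.119) in C cells.

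Htra1, a secreted serine protease of the matrix, went the other way. It lay at 11.2 and 11.6 CPM in C cells and at 0.852 and 1.71 CPM in P cells at day −2, a P to C log2 ratio of −3.12 (SE 0.39, adjusted p = 0.00701). At day 1 it lay at 0.474 and 0.319 CPM in C cells and had 1 and 2 counts in the 2 P libraries. The fall was −4.83 on the log2 scale (SE 0.44, adjusted p = 0.000569) in C cells and −4.18 (SE 0.59, adjusted p = 0.00421) in P cells. Day 1 and day −2 libraries did not overlap in either line. From the counts the ratio of day 1 to day −2 was 0.0349 in C cells, with a 95% counting interval of 0.0211 to 0.0544, and 0.0490 in P cells, with an interval of 0.00984 to 0.150.

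H19, the imprinted noncoding RNA whose gene lies near Igf2 and shares its enhancers, rose with Igf2 at day 1. It went from 3.35 and 3.01 CPM to 173 and 230 CPM in C cells, a log2 ratio of 5.98 (SE 0.52, adjusted p = 0.000461). In P cells it went from 13.4 and 4.82 CPM to 266 and 250 CPM, a log2 ratio of 4.84 (SE 0.48, adjusted p = 0.00111). As for Igf2, both P libraries lay above both C libraries at either day, but the P to C log2 ratio was not called at day −2, at 1.50 (SE 0.45, adjusted p = 0.107), or at day 1, at 0.36 (SE 0.41, adjusted p = 0.795). In the RefSeq gene list 2 genes lie between Igf2 and H19. Ins2, also with 2 genes between it and Igf2, had at most 1 count in a library. The antisense gene Igf2os, which overlaps Igf2, had at most 11 counts in a library. Without strand, reads from the stretch that this pair shares cannot be told apart.

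Airn, the imprinted antisense RNA that overlaps Igf2r, had a log2 ratio of day 1 to day −2 of 1.68 (SE 0.69, adjusted p = 0.12) in C cells and 2.35 (SE 0.72, adjusted p = 0.0607) in P cells. In P cells at day −2 it lay at 0.213 and 1.85 CPM, and its call was kept in 2 of 8 leave-outs, those of a day −2 library of P cells, with log2 ratios of 1.57 without replica 1 and 4.67 without replica 2. Without strand, reads from the stretch that Airn and Igf2r share cannot be told apart either. Airn reached at most 6.98 CPM in a library. Of the RNA-binding proteins named for Igf2 mRNA, Igf2bp1 had log2 ratios at day 1 of −0.71 (SE 0.14, adjusted p = 0.0131) in C cells and −0.94 (SE 0.14, adjusted p = 0.00579) in P cells, within the ratio threshold. Its level in P cells was 121.8 and 100.6 CPM at day −2 and 58.8 and 57.2 CPM at day 1, and without replica 2 of day −2 its log2 ratio was −1.07 and called lower. Igf2bp2 and Igf2bp3 were called in no comparison.

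**Figure D5:**
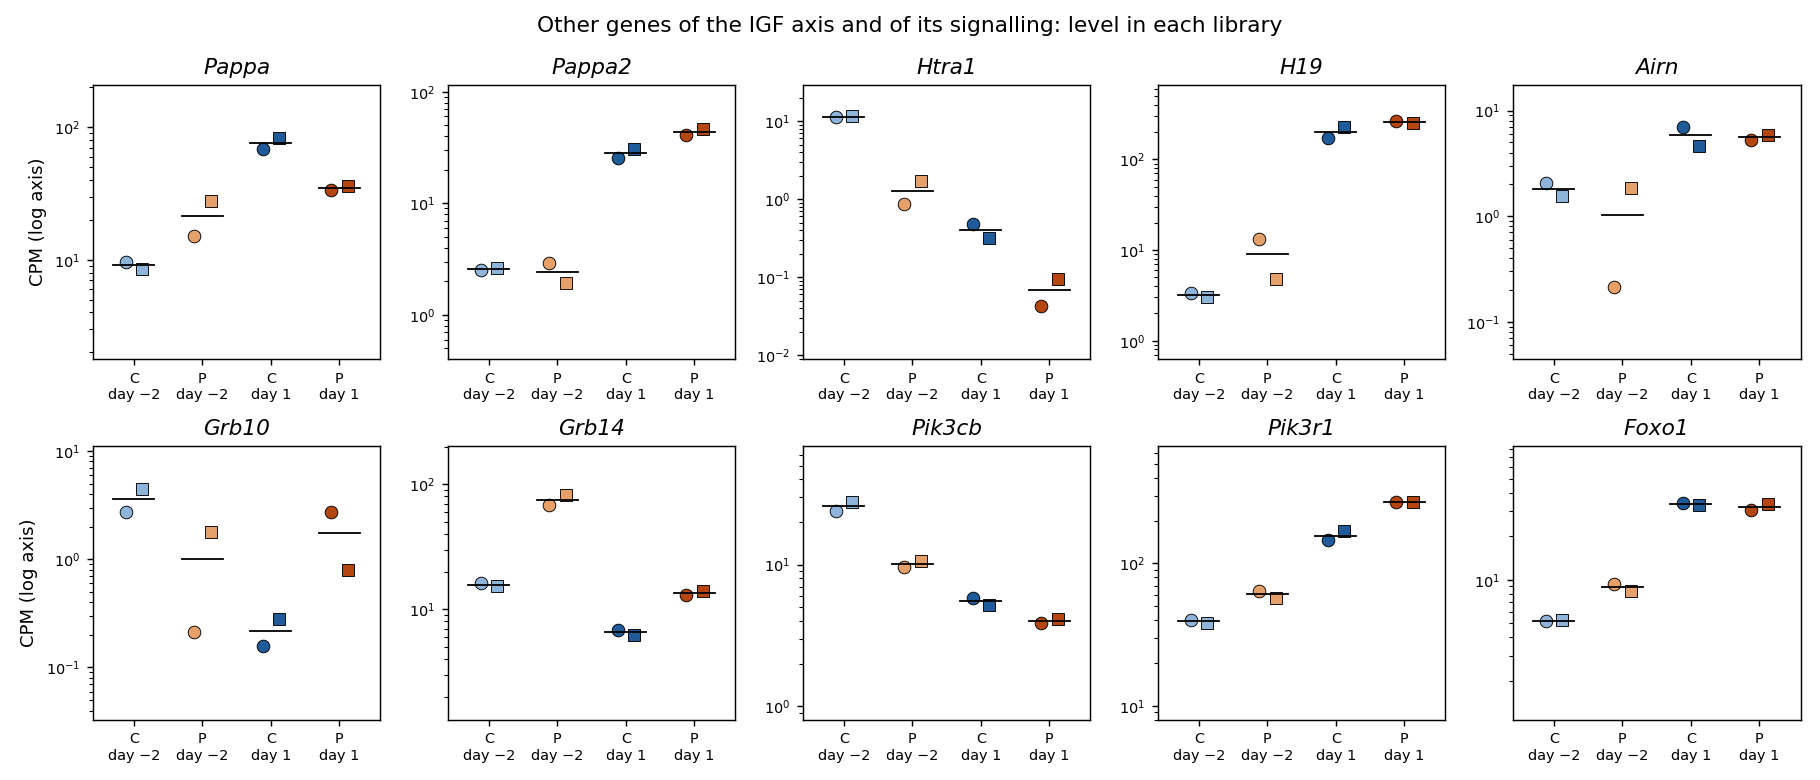
Level in each library (CPM, log axis) of genes from the lists of the other IGF axis and of signalling. Circles are replica 1, squares replica 2 and bars the mean of the 2 replicas. Pappa rises more in C cells than in P cells, Grb14 is higher in P cells at both days, and H19 and Pappa2 are high only at day 1.

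Insr, the insulin receptor and a gene of the axis list, was not called at day 1. It went from 39.0 and 38.3 CPM to 56.1 and 57.0 CPM in C cells, a log2 ratio of 0.55 (SE 0.19, adjusted p = 0.0802). In P cells the day −2 replicas, at 42.5 and 29.6 CPM, enclosed those of day 1, at 37.9 and 42.0 CPM, with a log2 ratio of 0.15 (SE 0.19, adjusted p = 0.606) that was −0.09 without replica 2 of day −2. Among the signalling genes, the 2 main insulin receptor substrates moved in opposite directions in both lines. Irs1 fell from 41.8 and 39.4 CPM to 14.6 and 15.3 CPM in C cells and from 81.6 and 63.6 CPM to 28.8 and 28.2 CPM in P cells. Irs2 rose from 58.9 and 62.9 CPM to 162 and 164 CPM in C cells and from 65.1 and 55.1 CPM to 143 and 136 CPM in P cells. The log2 ratios of Irs1 were −1.44 (SE 0.17, adjusted p = 0.00153) and −1.35 (SE 0.17, adjusted p = 0.00247), and those of Irs2 were 1.42 (SE 0.14, adjusted p = 0.000863) and 1.21 (SE 0.14, adjusted p = 0.00208). Irs1 was higher in every P library than in the C libraries of the same day, by 0.84 and 0.93 on the log2 scale, but within the ratio threshold. Irs1 and Irs2 were named after their values were seen.

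Grb14, an adaptor known to bind and inhibit the insulin receptor, fell at day 1 in both lines and was higher in P cells at both days. It lay at 16.3 and 15.3 CPM in C cells and at 68.0 and 81.2 CPM in P cells at day −2, and at 6.83 and 6.29 CPM in C cells and 13.0 and 14.1 CPM in P cells at day 1. Between the lines, the P to C log2 ratio was 2.24 (SE 0.17, adjusted p = 0.00162) at day −2 and 1.05 (SE 0.17, adjusted p = 0.0228) at day 1. The fall was −1.27 (SE 0.17, adjusted p = 0.00238) in C cells and −2.46 (SE 0.17, adjusted p = 0.000307) in P cells. The difference, −1.20 (SE 0.23, adjusted p = 0.0719), was kept in 2 of 8 leave-outs, those of a day −2 library of P cells, and the call between the lines at day 1 in the 4 leave-outs of a day −2 library. The related adaptor Grb10 varied widely between replicas. Its log2 ratio at day 1 in C cells was −4.01 (SE 1.06, adjusted p = 0.0332), from 2.71 and 4.47 CPM to 0.158 and 0.279 CPM, kept in 5 of 8 leave-outs and lost without either day 1 library of C cells or replica 2 of C cells at day −2. In P cells it lay at 0.213 and 1.78 CPM at day −2 and at 2.74 and 0.794 CPM at day 1, which overlapped.

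Of phosphoinositide 3-kinase, the regulatory subunit Pik3r1 rose and the catalytic subunit Pik3cb fell at day 1. Pik3r1 went from 40.0 and 38.3 CPM to 146 and 168 CPM in C cells, and from 64.0 and 57.6 CPM to 269 CPM in both replicas of P cells. Its log2 ratio was 2.00 (SE 0.14, adjusted p = 0.000243) in C cells and 2.14 (SE 0.14, adjusted p = 0.000301) in P cells. Pik3cb went from 23.9 and 27.7 CPM to 5.84 and 5.18 CPM in C cells and from 9.59 and 10.7 CPM to 3.85 and 4.11 CPM in P cells. Its log2 ratio was −2.23 (SE 0.19, adjusted p = 0.000412) in C cells and −1.35 (SE 0.19, adjusted p = 0.00398) in P cells, and its P to C log2 ratio at day −2 was −1.35 (SE 0.18, adjusted p = 0.00955), a call lost without replica 2 of C cells at day −2. Foxo1, a transcription factor that Akt holds out of the nucleus, rose from 5.18 and 5.27 CPM to 33.8 and 32.9 CPM in C cells and from 9.32 and 8.42 CPM to 30.2 and 33.6 CPM in P cells. Its log2 ratio was 2.67 (SE 0.16, adjusted p = 0.000151) in C cells and 1.85 (SE 0.16, adjusted p = 0.000706) in P cells.

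The genes whose log2 level followed each IGF gene most closely were found by Pearson's r over the 8 libraries. They were sought among 10895 tested genes with a mean of at least 50 counts per library. The libraries share 4 conditions and the same depth differences, so r is given as a description. It does not measure the size of a change. For Igfbp4 the means of the conditions ran from 26.4 to 1317 CPM, and for its close match Trerf1 from 31.1 to 47.0 CPM. Peli2 (r = 0.999) and Sned1 (r = 0.997) were most like Igf2, and 319 genes had an r above 0.95 with it. For Igf2r they were Ptges and Sik2, both at 0.994, with 229 genes above 0.95. The patterns of Igfbp3 and Igfbp4 were followed most closely by Tk2 (r = 0.996) and Slc16a1 (r = 0.988) and by Rab3il1 (r = 0.996) and Trerf1 (r = 0.994). Cyp1b1 (r = 0.991) and Ppfia2 (r = 0.990) were most like Igfbp5, with 43 genes above 0.95. The least shared patterns were those of Igf1 and Igfbp6, with 5 and 9 genes above 0.95, led by Arl6ip5 (r = 0.981) and Cutc (r = 0.963) for Igf1 and Gpr149 (r = 0.984) and Zfp703 (r = 0.974) for Igfbp6. Limk2 (r = 0.983) and Mrgpre (r = 0.982) led for Igf1r, and Kdelr2 (r = 0.986) and Tmem119 (r = 0.985) for Igfbp7.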

How the data were processed

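RNA was measured in 8 libraries, 2 replicas of each of 4 conditions. Per the sources, the authors aligned Ion Torrent reads to mm9 (TopHat2 2.0.9) and deposited whole-number counts per NCBI gene, not normalized, for 24013 genes. How the authors treated strand and reads shared between genes is not given in the sources used here. Symbols for 23929 genes came from a RefSeq list (GRCm38.p6), which also gave the order of neighbouring genes. The other 84 genes kept their numbers.

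Counts were filtered with filterByExpr (13339 genes left), scaled by TMM (factors 0.837 to 1.08) and fitted in R 4.3.3 with edgeR 4.0.16 (quasi-likelihood, 1 mean per condition, no block). Low counts were compared with exact binomial intervals at the 95% level. The scripts were checked on simulated counts. Alternatives included DESeq2 1.42.0, library totals, other filters, blocks, the libraries of a comparison alone, and leaving out each library.

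The IGF genes and lists were chosen with earlier results of these data known. Named are all 10 IGF genes, all tested genes of the axis list, and from the signalling list the largest changes among those called. P-values and SE rest on the spread between replicas, with a single estimate per gene shared by all conditions. The wide spread of P cells at day −2 thus enters the SE and p-values of every comparison, also those without these libraries. An exact permutation test of 2 against 2 cannot go below 0.333. Whether equal replica numbers pair libraries is not in the labels. Of 6 correlations between their deviations, 1 was over 0.1.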

Additional observations from a re-analysis of the deposited data

Results flagged for a closer look

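The response to induction was compared between the lines by the interaction term of the edgeR fit. Among the cell type markers, Adipoq, Cidec and Fabp4 were called higher in P cells by this term, and the fibroblast marker Thy1 lower. Among the IGF genes and those of the axis and signalling lists that were described, 4 were called. Of these only the call of Igfbp5 was kept in all 8 leave-outs of a library. Those of Igfbp6, Pappa and Grb14 were each lost in 6 of 8. The calls of Pappa and Grb14 were also lost with library totals and with the replicate block. All but that of Igfbp5 were lost with the block of crossed P numbers. Igfbp5 had a log2 ratio of day 1 to day −2 of 6.31 in C cells and 0.11 in P cells, a difference of −6.21 (SE 0.54). Igfbp6 had −0.93 and 0.86, a difference of 1.79 (SE 0.33), with the day 1 libraries below those of day −2 in C cells and above them in P cells. Pappa had 3.06 and 0.70, a difference of −2.36 (SE 0.40, adjusted p = 0.0493). Grb14 had −1.27 and −2.46, a difference of −1.20 (SE 0.23, adjusted p = 0.0719). Igfbp5 and Igfbp6 were chosen with these values known. The list that holds Pappa was drawn up with other results of these libraries known, and Grb14 was named for its large change, so both p-values carry a selection. With 2 replicas per condition, no library could be tested for standing apart within its condition.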

How the results depend on the processing

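No called value changed sign under the alternatives run. Of 751 alternative values for the IGF genes, 689 kept their side of the threshold, 23 gained a call and 32 lost one. The other 7 were uncalled log2 ratios that changed sign by more than their SE. The depth limits Igfbp2, and Igfbp5 in C cells at day −2. With no filter on low counts Igfbp2 was tested too. In P cells 5 of 10 IGF genes were then called at day 1, 4 of them higher. In the reported fit 4 of 9 were called, 3 of them higher. IGF genes called in P against C cells at day −2 were 3, and 5 with no ratio threshold. For the difference of responses they were 2, and 1 each with 10 counts asked in every library (which leaves out Igfbp5), with the P numbers crossed and at an adjusted p of 0.05. Leaving out a library gave 5 to 6 in C cells, 3 to 4 in P cells, 2 to 4 at day −2, 1 to 3 at day 1 and 1 to 8 for the difference, 8 without P cells day −2 replica 2.

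Among the other axis and signalling genes, no ratio threshold gave 18 for 10 in P cells, 9 for 4 at day −2 and 5 for 2 at day 1, and the libraries of the comparison alone gave 1 at day −2. At day 1 DESeq2 gave 4, and 1 was left with 10 counts asked, with the replicate block, with either crossed block and at 0.05. For the difference, 2 in the reported fit, DESeq2 gave 5 and an adjusted p of 0.05 gave 1. Library totals, the replicate block and the block with crossed P numbers gave 0. In the reported edgeR fit 8 of the 41 genes had an unadjusted p under 0.05, as did 1922 of all 13339 genes. Leave-outs gave 11 to 16, 9 to 19, 2 to 13, 0 to 4 and 0 to 28, the 13 and the 28 without P cells day −2 replica 2. The causes were not tested.

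Between libraries of equal replicate number, 5 of 6 correlations of deviations were below 0. The deviations of the 2 replicas of a condition are equal and opposite. A value below 0 can therefore also arise from libraries that deviate together under crossed numbers. These correlations cannot show whether or how the libraries were paired. The block took the call from Igfbp7 at day −2 (1.13) and Igfbp4 at day 1 (−2.11). Igfbp4 at day −2 was called with DESeq2 (−1.49), library totals (−1.75), no filter (−1.50) and 10 counts asked in every library (−1.54). It was also called in the block with all day 1 numbers crossed (−1.59). Igfbp3 at day −2 was called with library totals (−1.12). Library totals shifted the median of all genes by −0.115, 0.195, −0.175 and 0.114 in the 4 comparisons. Calls over all genes at day −2 were 931, 597 with the block, 86 from their own libraries, 602 at 0.05 and 1513 with no ratio threshold. At day 1, 542 became 838 from their own libraries and 820 with no ratio threshold. The 2406 in P cells became 1159 and 4192 likewise, and the 2723 in C cells 4743 with no ratio threshold. For the difference, 316 became 930 with DESeq2, 117 with the block, 148 with P numbers crossed and 174 at 0.05. Leaving out a library gave 1722 to 3194 calls in C cells, 1282 to 4925 in P cells, 182 to 4290 at day −2, 64 to 1003 at day 1 and 31 to 8332 for the difference, the highest without replica 2 of P cells at day −2 in all but C cells. Without that library 1933 were higher and 2357 lower at day −2, against 644 and 287. The shares of all genes printed beside the IGF genes move with these counts. Comparisons by transcript length, in both planned forms, and promoter motifs were not run, since the needed sequences were not used here.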
